A study of Mus musculus with 8 samples.

Results

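WNT ligands, their receptors, the cytoplasmic relay and a set of target genes were followed in RNA from 8 mouse induced pluripotent stem cell (iPSC) clones. The group held 33 genes, chosen by name from the WNT pathway and found among the 21427 gene symbols that 27052 RefSeq transcript records of the count table could be given. For each symbol the record with the highest mean count stood for the gene. Of the 33 genes, 31 reached 5 reads in 4 or more of the 8 libraries and entered the tests, among 16235 records in all. Nkd1 and Tcf7l2 did not pass this filter.

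WNT proteins are secreted, lipid-modified signals that bind Frizzled receptors together with the co-receptors Lrp5 or Lrp6. Without a signal, a destruction complex built on Axin and Apc phosphorylates β-catenin, which is then degraded, and with a signal Dishevelled holds the complex back, so that β-catenin enters the nucleus and acts on target genes with Tcf/Lef factors. In mouse pluripotent cells this pathway is known for supporting self-renewal, and the same pathway induces the primitive streak, the source of mesoderm and endoderm, when the cells leave pluripotency.

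The study asked whether the PIWI proteins, partners of small RNAs in the germ line, matter for iPSCs. The 4 TKO clones (35, 37, 47 and 48) came from mouse embryonic fibroblasts (MEFs) of the genotype *Miwi*-/- *Mili*-/- *Miwi2*-/-. The 4 Ctrl clones (33, 34, 41 and 43) came from control MEFs, given as triple heterozygous in the methods and as wild type or heterozygous littermates in the legends. All MEFs carried an Oct4-GFP reporter on a mixed C57BL/6-s129 background and had been reprogrammed with retroviruses for OCT4, SOX2, KLF4 and c-MYC, the picked colonies were first plated on inactivated MEF feeders, and the clones were grown in serum and leukaemia inhibitory factor for fewer than 10 passages. Each library was 1 clone, and the labels do not say which embryo a clone came from, so the p-values measure the spread between these clones and no more. The clone numbers fall into a thirties series (33, 34, 35 and 37) and a forties series (41, 43, 47 and 48), each with 2 Ctrl and 2 TKO clones, and no label explains this numbering.

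The libraries held 8983203 to 52457455 counts, with the lowest total in Ctrl 33 and the highest in TKO 37. Of 15 naive pluripotency genes, 14 were counted in every clone, with Pou5f1 between 15870 and 28970 normalized counts. Esrrb was listed at 0 to 1.45, but its symbol has several records, so this level may not stand for the gene. The genes Ddx3y, Eif2s3y, Kdm5d and Uty of the Y chromosome were counted in all forties clones (39.5 to 268 normalized counts) and were at 0 to 8.64 in the thirties clones. Xist, of the X chromosome, had 625.2 to 891.5 in the forties clones and 374.6 to 725.9 in the thirties clones, so the series overlapped for it. *Miwi* (Piwil1) had 2.41 to 4.53 normalized counts in TKO clones and 8.13 to 28.8 in Ctrl clones. *Mili* (Piwil2) had 3844 to 10085 in TKO clones against 758 to 1028 in Ctrl clones, and the *Miwi2* record had 936 to 2862 against 487 to 769. By the study's account these alleles still give truncated transcripts, and a count over a whole record does not separate a deleted part from the rest, so for *Mili* and *Miwi2* it does not check the label. A normalized count here is the read count of a record divided by the library's size factor, and comparisons between genes use this count per kb of record.

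Within the WNT group the levels spanned several orders of magnitude. The highest was Csnk1a1, the casein kinase that gives β-catenin its first phosphate, with 3865 ± 520 normalized counts per kb (SD, n = 8 clones). Gsk3a, a kinase that continues this phosphorylation, followed with 1685 ± 253 per kb (SD, n = 8). The Dishevelled gene Dvl2 had 701 ± 114 per kb and the Tcf factor gene Tcf7 had 622 ± 92.7 per kb (SD, n = 8), which overlap within their spread. Sfrp1, which encodes a secreted protein that binds WNTs, was the more abundant inhibitor with 589 ± 217 per kb (SD, n = 8).

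Among the receptors, Fzd7 had 424 ± 88.1, Lrp5 420 ± 91.4 and Lrp6 336 ± 49.8 normalized counts per kb (SD, n = 8), and these neighbours did not differ beyond their spread. The other Frizzled genes were lower, from 64.8 per kb for Fzd2 to 1.65 per kb for Fzd5. The ligand genes all lay below Fzd7, Lrp5 and Lrp6. Wnt5a, best known for signalling that does not pass through β-catenin, led them with 91.1 ± 50.2 per kb (SD, n = 8), and Wnt4, Wnt8a, Wnt6, Wnt5b and Wnt7b lay between 36.6 and 7.22 per kb. Of the target genes, Znrf3 had 100.5 ± 24.2 and Axin2 55.7 ± 8.85 per kb, and the transcription factor genes Cdx1 and Sp5 had 34.2 ± 28.5 and 11.4 ± 11.7 (SD, n = 8), so that the spread of Sp5 over clones exceeded its mean.

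**Figure D1:**
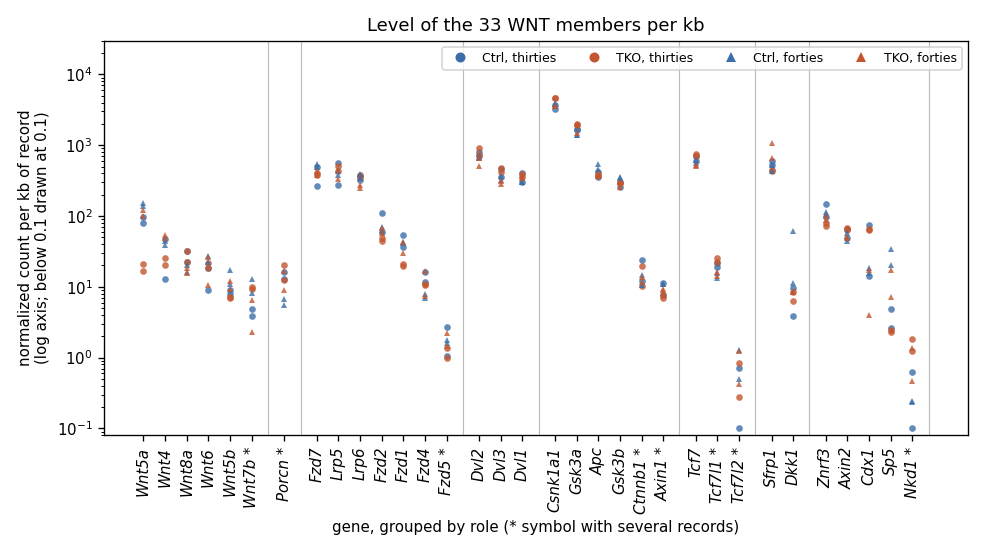
Normalized count per kb of record (log axis) for each of the 33 WNT genes, grouped by role, with 1 point per clone; circles are thirties clones, triangles forties clones, blue Ctrl and orange TKO. Csnk1a1 is highest at a mean of 3865 per kb, and most genes marked with an asterisk, whose symbol has several records, lie low in their role.

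The symbols with several records need care. Ctnnb1, which encodes β-catenin itself, had 31 to 127 reads per library and 14.6 normalized counts per kb on the record used, below Sfrp1 and most receptors. Its symbol has 2 records in the table. The 8 members with several records (Wnt7b, Porcn, Fzd5, Ctnnb1, Axin1, Tcf7l1, Tcf7l2 and Nkd1) had a median of 8.2 normalized counts per kb, and the 25 members with 1 record had a median of 100. Over all protein-coding symbols, those with 1 record had a median normalized count of 139 and those with 2 or more had 10.4 on the highest record. Reads had been aligned to the transcript records, and how a read that fits several records was counted is not given in the sources used here, so the level of these 8 genes may not stand for the gene.

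**Figure D2:**
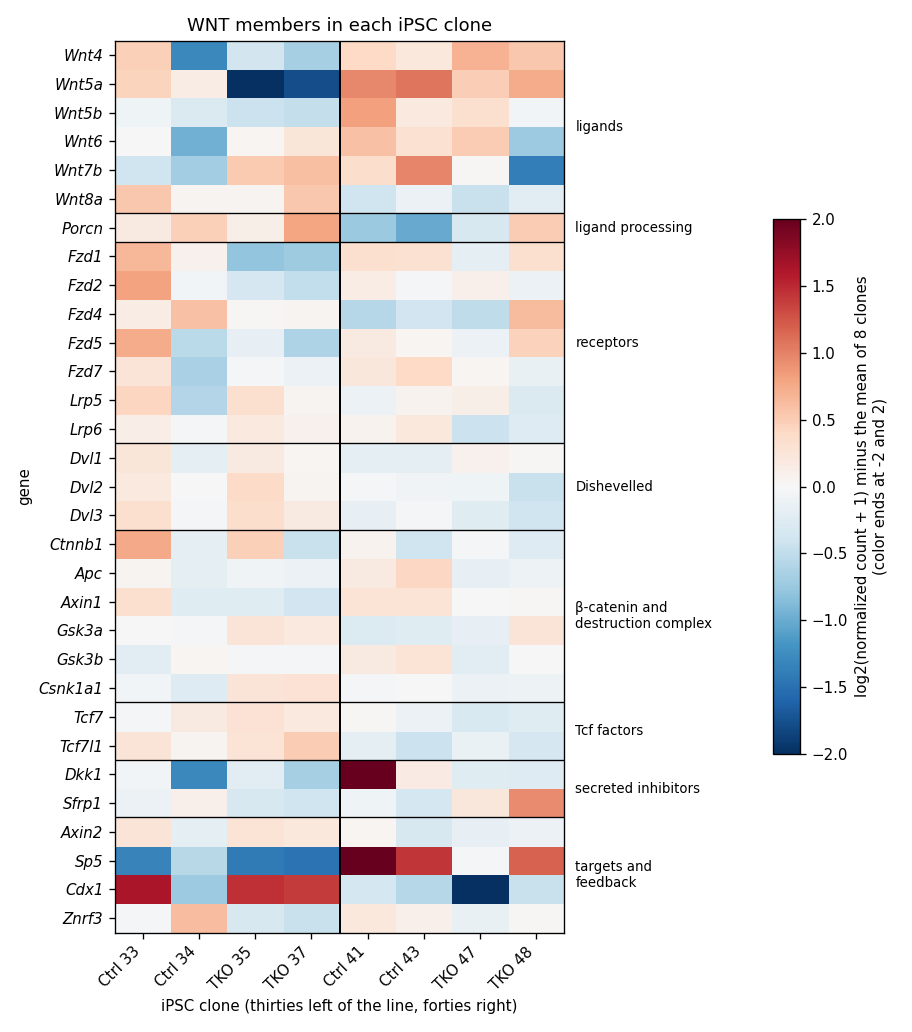
Heat map of the 31 tested WNT genes (vertical axis, grouped by role) in the 8 clones (horizontal axis). Color is log2(normalized count + 1) minus the gene's mean over the clones. Wnt5a is low in TKO 35 and TKO 37, Sp5 is high in most forties clones, and Cdx1 is high in Ctrl 33, TKO 35 and TKO 37.

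The comparison of genotypes asked whether loss of the PIWI proteins changed the pathway. No WNT gene passed the test: 0 of 31 had an adjusted p under 0.05 in edgeR's quasi-likelihood test with Benjamini-Hochberg adjustment, where 0.240% of all records tested did. DESeq2 also called 0. At an unadjusted p under 0.05, 1 gene was higher and 2 were lower in TKO, where 14.8% of all records passed that level, and for 0 of 31 genes did the 4 TKO clones lie entirely above or below the 4 Ctrl clones, against 8.33% of all records. The median log2 fold change of the 31 genes was -0.03, and that of all records was -0.005. In RNA from a whole culture, fewer cells of a type and less RNA per cell cannot be told apart, and this holds for each difference below.

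Single genes still varied. The log2 fold changes ran from -1.51 (standard error 0.70, adjusted p = 0.352, edgeR) for Dkk1, which encodes a blocker of Lrp5 and Lrp6, to 0.56 (standard error 0.41, adjusted p = 0.533, edgeR) for Porcn, the enzyme that attaches the lipid to WNTs. Dkk1 had 21.7, 8.64, 139.2 and 25.5 normalized counts in Ctrl 33, 34, 41 and 43, and 19.2, 14, 19.0 and 18.8 in TKO 35, 37, 47 and 48. Ctrl 41 stood alone, and the other 7 clones overlapped. Porcn had 24.4, 30.2, 12.5 and 10.2 in the Ctrl clones and 23.2, 37.6, 17.0 and 30.8 in the TKO clones, in the same order.

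With the series added to the model, the test again called 0 of 31 WNT genes, while the share of all records called rose to 5.70%. In that model the value for Wnt5a was -1.26 on the log2 scale (standard error 0.33, adjusted p = 0.0539, edgeR) and its adjusted p under the other settings of the genotype comparison was between 0.217 (without TKO 48) and 0.784 (without TKO 35). Of 101 other WNT pathway genes tested, 0 passed in edgeR without the series term and 6 with it (Wnt9a and Celsr1 higher; Ppp2ca, Tle4, Crebbp and Fst lower). Before adjustment, 4 had p under 0.05 and a higher level in TKO without that term, and 8 a lower one. Of all records, 14.8% passed that level (1205 higher and 1200 lower of 16235). The most abundant gene of each of their roles, from Hdac1 (7505 normalized counts per kb), a histone deacetylase that acts with Tcf corepressors, and the phosphatase subunit gene Ppp2r1a (4849) through Ccnd1 (1885), Wls (578) and Lgr4 (486) to Notum (284), did not pass in either model.

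Within the thirties series, in contrast, 4 WNT genes passed the test, 1 higher and 3 lower in TKO. This is 12.9% of the 31, a share close to the 11.9% of all records in that comparison (4.83% higher and 7.05% lower). The most changed was Wnt5a, on chromosome 14 from 29317936 to 29340633 (mm9, plus strand). It had 417 and 341 normalized counts in Ctrl 33 and Ctrl 34, and 71.9 and 88.8 in TKO 35 and TKO 37. The TKO clones of this series were the lowest of all 8 clones. The mean was 4.72-fold lower in TKO, a log2 change of -2.23 (standard error 0.19, adjusted p = 0.00112, edgeR), and the call held under all 14 alternative settings, at adjusted p-values up to 0.0389.

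In the forties series Wnt5a had 600 and 645 normalized counts in Ctrl 41 and Ctrl 43, and 434 and 515 in TKO 47 and TKO 48. The TKO clones were again the lower pair, a log2 change of -0.39 (standard error 0.17, adjusted p = 0.251, edgeR), which did not pass. The difference between the series was itself tested. The change of Wnt5a in the forties exceeded that in the thirties by 1.83 on the log2 scale (standard error 0.26, adjusted p = 0.0221, edgeR), and it was the 1 WNT gene of 31 to pass this test, against 1.30% of all records. That call was lost without Ctrl 41, Ctrl 43, TKO 35, TKO 37 or TKO 48 (difference 1.70 to 2.00, adjusted p 0.0558 to 0.209, and 1.30e-07 to 0.209 over all 14 settings).

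Fzd1, a Frizzled receptor gene on chromosome 5 from 4753842 to 4758216 (mm9, minus strand), was also lower in the thirties TKO clones. It had 238 and 158 normalized counts in Ctrl 33 and Ctrl 34, and 86.6 and 91.2 in TKO 35 and TKO 37. In the forties it had 188 and 185 in the Ctrl clones and 130 and 187 in TKO 47 and TKO 48, so the pairs overlapped. The change within the thirties was -1.13 on the log2 scale (standard error 0.26, adjusted p = 0.0248, edgeR). It was lost without Ctrl 41, Ctrl 43, TKO 35 or TKO 37 (-1.18 to -1.10, adjusted p 0.0551 to 0.182; 0.00198 to 0.182 over all settings).

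Znrf3, on chromosome 11 from 5176327 to 5344850 (mm9, minus strand), encodes a ubiquitin ligase that removes Frizzled receptors from the cell surface and is itself induced by WNT. It had 607 and 946 normalized counts in Ctrl 33 and Ctrl 34, and 497 and 453 in TKO 35 and TKO 37. Both TKO values were below both Ctrl values, and the forties clones, at 715 and 662 in Ctrl and 558 and 631 in TKO, were ordered the same way. The change within the thirties was -0.72 (standard error 0.20, adjusted p = 0.0457, edgeR), and without Ctrl 34, Ctrl 41, Ctrl 43, TKO 35 or TKO 37 it did not pass (-0.79 to -0.35, adjusted p 0.0876 to 0.244; 0.00341 to 0.244 over all settings).

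Csnk1a1 was the member that was higher. It had 7452 and 6428 normalized counts in Ctrl 33 and Ctrl 34, and 9243 and 9452 in TKO 35 and TKO 37, the highest of the 8 clones. In the forties the order turned, with 7598 and 7741 in Ctrl and 7109 and 7211 in TKO. The log2 fold change within the thirties was 0.43 (standard error 0.10, adjusted p = 0.0227, edgeR), lost without Ctrl 41, Ctrl 43, TKO 35 or TKO 37 (0.41 to 0.45, adjusted p 0.0525 to 0.156; 0.00285 to 0.156 over all settings). The difference between the series for Csnk1a1 was -0.53 (standard error 0.13, adjusted p = 0.0866, edgeR), which did not pass in edgeR and passed in DESeq2.

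Fzd2, another Frizzled receptor gene, did not pass in edgeR within the thirties (-0.83, standard error 0.26, adjusted p = 0.0702). It was called there by DESeq2 and by the fit with no filter on low counts. It had 395.5 and 219 normalized counts in Ctrl 33 and Ctrl 34, and 179 and 161 in TKO 35 and TKO 37. In the forties it had 252 and 220.1 in the Ctrl clones and 243 and 209.5 in the TKO clones, so the pairs overlapped there.

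**Figure D3:**
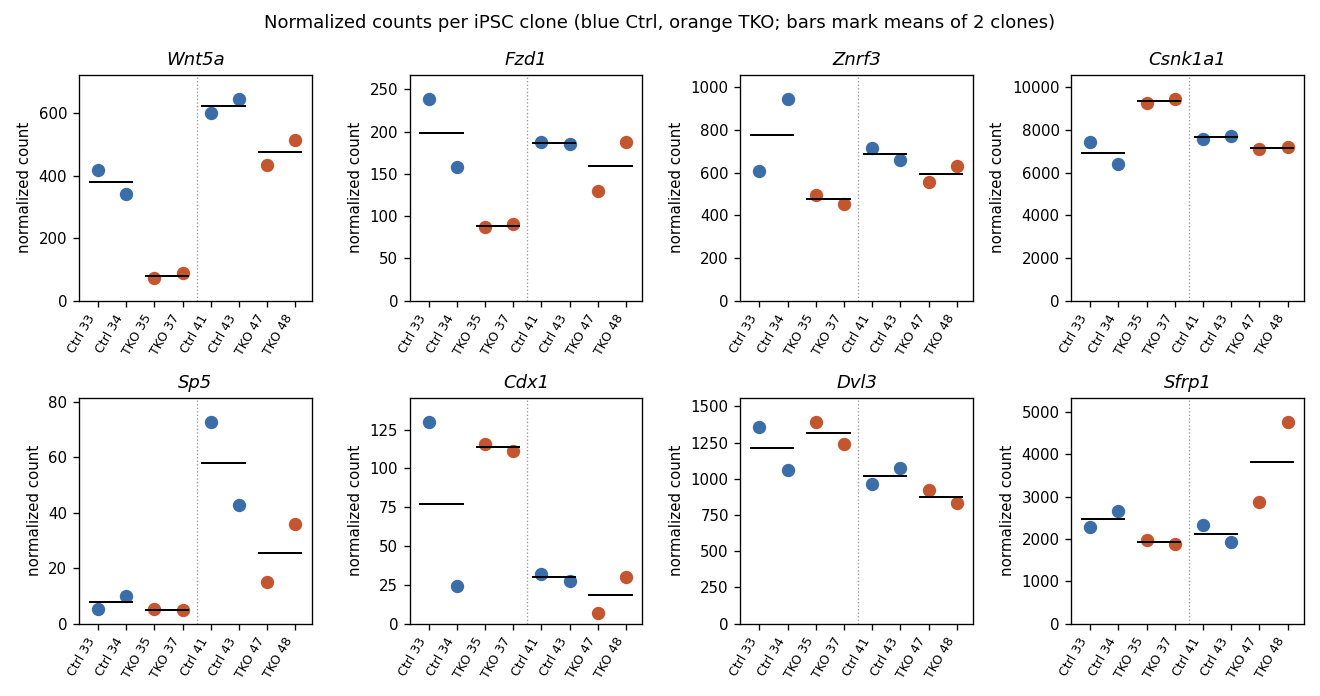
Normalized counts (vertical axes, from 0) of 8 WNT genes in each clone, blue for Ctrl and orange for TKO, with bars at the mean of each pair and a dotted line between the thirties and forties series. Wnt5a, Fzd1 and Znrf3 are lower in TKO 35 and TKO 37 than in Ctrl 33 and Ctrl 34, and Csnk1a1 is higher.

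The other WNT genes tested within the thirties gave 5 higher and 13 lower in TKO, 17.8% of 101, against 11.9% of all records (4.83% higher and 7.05% lower). The smallest adjusted p-values belonged to Fst, Ccnd2 and Dkk2, all lower. Fst, which encodes the activin antagonist follistatin, had 409 and 291 normalized counts in Ctrl 33 and Ctrl 34 and 101 and 110 in TKO 35 and TKO 37, a log2 change of -1.71 (standard error 0.21, adjusted p = 0.00313, edgeR). Ccnd2, a D-type cyclin, had 4954 and 3064 in Ctrl and 931 and 999 in TKO (-2.05, standard error 0.26, adjusted p = 0.00345, edgeR). Dkk2, a relative of Dkk1, had 279 and 203 in Ctrl and 81.5 and 93.6 in TKO (-1.44, standard error 0.19, adjusted p = 0.00458, edgeR). Among the rest that fell were the WNT carrier Wls (-0.75), the Wnt5a receptor Ror1 (-1.57), the WNT-cleaving enzyme Notum (-1.24), the inhibitor Frzb (-1.99) and the transcription factor Lef1 (-1.16), and Wnt3a (1.13) and the kinase Csnk1e (1.09) rose. Without TKO 35 or TKO 37 each of these lost its call, Fst, Ccnd2 and Dkk2 at adjusted p-values of 0.0526 to 0.0814 (3.2e-13 to 0.0814 over all settings), and Lef1 and Wnt3a also lost theirs without Ctrl 34, Ctrl 41 or Ctrl 43.

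Fibroblast markers moved with these genes. In the thirties TKO clones 7.05% of all records were called lower and 4.83% higher. Of 20 markers of fibroblasts, the cells the clones were made from and the feeders they were first plated on, 13 were lower and 0 higher in the thirties TKO clones, with a median log2 fold change of -1.31. Their summed normalized counts were 105547 and 64961 in Ctrl 33 and Ctrl 34, 33150 and 31403 in TKO 35 and TKO 37, 45093 and 50142 in Ctrl 41 and Ctrl 43, and 64753 and 54592 in TKO 47 and TKO 48. The thirties Ctrl mean was thus 2.64-fold the thirties TKO mean, and in the forties the TKO mean was 1.25-fold the Ctrl mean. No fibroblast marker was at 0 in any clone. Their part in the changes of Wnt5a, Fzd1, Znrf3 and the other WNT genes was not tested.

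Other marker lists moved in the thirties as well. The summed neural markers were 5260 and 7232 in Ctrl 33 and Ctrl 34 against 3071 and 2814 in TKO 35 and TKO 37, with 3 of 8 called lower (7.05% of all records were). The summed trophoblast markers were 3435 and 1826 against 4546 and 5946, with 1 of 9 called higher (4.83% of all records were). TKO 35 and TKO 37 were the deepest libraries and Ctrl 33 and Ctrl 34 the shallowest, and the part of depth was not tested.

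**Figure D4:**
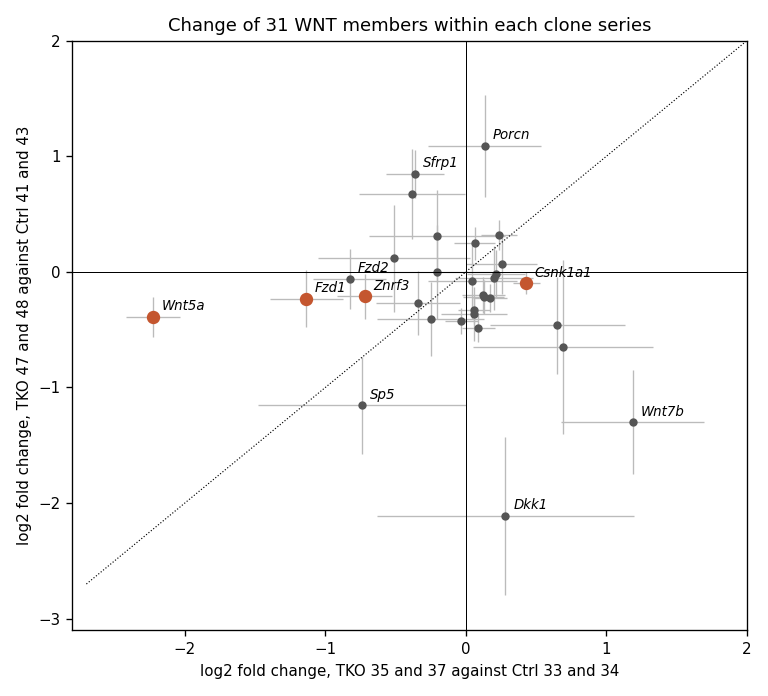
Log2 fold change of TKO against Ctrl for 31 WNT genes within the thirties (horizontal axis) and within the forties (vertical axis), with standard errors as bars and a dotted line of equal change. The 4 genes called within the thirties are orange, and Wnt5a lies farthest left at -2.23 against -0.39 in the forties.

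Within the forties series 0 of 31 WNT genes passed edgeR's test, against 1.98% of all records, and at an unadjusted p under 0.05, which 19.8% of all records passed, there were 3 higher and 7 lower in TKO. DESeq2 called 3 there, and the fit with no filter on low counts also called 3. Each of these fits also called more of all records than the filtered edgeR fit, which called 322. Both called Sfrp1 and Lrp6, and DESeq2 added Apc while the unfiltered fit added Dkk1. Sfrp1 had 2320 and 1927 normalized counts in Ctrl 41 and Ctrl 43, and 2877 and 4766 in TKO 47 and TKO 48, and it had 2273 and 2658 in Ctrl 33 and Ctrl 34 and 1971 and 1873 in TKO 35 and TKO 37. TKO 48 was the highest clone, and the order of the genotypes was opposite in the 2 series. Its log2 fold change was 0.85 in the forties (standard error 0.21, adjusted p = 0.0744, edgeR) and -0.36 in the thirties (standard error 0.21, adjusted p = 0.278, edgeR), and the difference of 1.21 (standard error 0.30, adjusted p = 0.0802) did not pass in edgeR and passed in DESeq2 and with no filter. With no filter the difference also passed for Wnt7b, which had 6 to 69 reads per library (-2.49 and adjusted p = 0.102 with the filter, edgeR).

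The median log2 fold change of the 31 genes within the forties was -0.21, with 23 of 31 below 0, where all records had a median of 0.014. Lrp6, a co-receptor, had 1899 and 2100 normalized counts in Ctrl and 1343 and 1507 in TKO (-0.49, standard error 0.12, adjusted p = 0.0662, edgeR). Apc, the scaffold of the destruction complex, had 5715 and 6727 in Ctrl and 4535 and 4739 in TKO (-0.42, standard error 0.11, adjusted p = 0.0896, edgeR). Both TKO values lay below both Ctrl values for these genes, which did not pass. Of 101 other WNT genes 0 were higher and 4 were lower, 3.96%, against 1.98% of all records (132 higher and 190 lower of 16235). The acetyltransferases of Ep300 (-0.61, adjusted p = 0.0273) and Crebbp (-0.53, adjusted p = 0.0486) act with β-catenin. The tankyrases of Tnks2 (-0.49, adjusted p = 0.0467) and Tnks (-0.55, adjusted p = 0.0468) mark Axin for degradation. These 4 calls are from edgeR. Each was lost without any 1 of 6 clones (all but Ctrl 33 and Ctrl 34, adjusted p 0.0594 to 0.346; 9.06e-05 to 0.346 over all settings).

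The clone series differed as well. This split was also that of the counts of the Y chromosome genes, whose part was not tested. With genotype in the model, 4 of 31 WNT genes (12.9%) differed between the forties and the thirties clones, 2 higher and 2 lower, against 19.4% of all records (9.84% higher and 9.56% lower). The share among the WNT genes was not above that of all records. For 6 of the 31 (19.4%) the 4 forties clones lay entirely above or below the 4 thirties clones, against 16.1% of all records (8.35% above and 7.72% below). Wnt5a, Wnt5b and Sp5 lay above, and Wnt8a, Dvl2 and Tcf7l1 lay below.

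Sp5 changed most among the members. It encodes a zinc-finger transcription factor that WNT signalling induces directly, and it lies on chromosome 2 from 70312980 to 70315786 (mm9, plus strand). In the thirties it had 5.42 and 10.1 normalized counts in Ctrl 33 and Ctrl 34 and 5.09 and 4.83 in TKO 35 and TKO 37, from 2 to 10 reads per library. In the forties it had 72.7 and 42.8 in Ctrl 41 and Ctrl 43 and 15.0 and 35.9 in TKO 47 and TKO 48, from 15 to 70 reads. All forties clones were above all thirties clones, TKO 47 by the least. The log2 difference was 2.54 (standard error 0.38, adjusted p = 0.00275, edgeR), and it passed under all 14 alternatives, at adjusted p-values of 3.06e-06 to 0.0153.

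Promoter sequences are shown for Sp5 and for T (Brachyury), targets that were higher in the forties, and for Axin2, a target that did not pass. Each is the 250 bases before the transcription start given by RefSeq (GRCm38.p6), 5′ to 3′ on the gene's strand, and capitals mark the letters CTTTG followed by AA, AT, TA or TT on either strand, which Tcf/Lef factors are known to favour. These lie at chr2:70474673-70474922 (plus), chr17:8434173-8434422 (plus) and chr11:108920099-108920348 (plus).
Sp5: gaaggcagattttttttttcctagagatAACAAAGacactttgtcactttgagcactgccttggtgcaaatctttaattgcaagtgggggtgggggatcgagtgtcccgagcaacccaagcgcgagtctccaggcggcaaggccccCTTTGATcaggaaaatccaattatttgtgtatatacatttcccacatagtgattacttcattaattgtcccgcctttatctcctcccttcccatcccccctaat
T: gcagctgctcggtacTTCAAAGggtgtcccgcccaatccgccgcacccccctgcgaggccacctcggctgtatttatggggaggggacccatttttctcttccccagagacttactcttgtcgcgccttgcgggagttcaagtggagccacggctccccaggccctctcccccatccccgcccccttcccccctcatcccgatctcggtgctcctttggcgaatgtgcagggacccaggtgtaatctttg
Axin2: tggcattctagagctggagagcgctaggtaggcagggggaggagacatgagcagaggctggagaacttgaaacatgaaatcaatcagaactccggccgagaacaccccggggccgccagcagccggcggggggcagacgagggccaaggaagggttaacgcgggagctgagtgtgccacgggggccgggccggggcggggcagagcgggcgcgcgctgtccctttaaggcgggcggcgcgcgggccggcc
Sp5 held 2 matches, 104 and 222 bases before the start, T held 1, 235 bases before it, and Axin2 held 0, with no overlap between matches. At least 1 match was present in 14.8% of all 32851 promoter windows of this length and in 6 of the 25 windows (24%) available for 20 of the WNT genes. The WNT pathway genes called between the series had 27 windows for 19 genes, with none for Wnt5a and Cdx1. Of these windows 3 (11.1%) held a match, those of Apc2, Sp5 and T. The share among the called genes was thus not above that of all windows. A match is a description of the letters and not a bound site.

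T, which marks the primitive streak and is a WNT target, was the other WNT gene with the smallest adjusted p. It had 27.1 and 18.7 normalized counts in Ctrl 33 and Ctrl 34, 10.2 and 10.1 in TKO 35 and TKO 37, 189 and 184 in Ctrl 41 and Ctrl 43, and 72.1 and 143 in TKO 47 and TKO 48, a log2 difference of 3.25 (standard error 0.27, adjusted p = 0.000272, edgeR). Mixl1, a homeobox gene of the streak, had 5.66 to 11.5 in the thirties and 21.0 to 94.5 in the forties (2.76, standard error 0.37, adjusted p = 0.0019, edgeR). Dkk2 had 81.5 to 279 in the thirties and 598 to 683 in the forties (2.20, standard error 0.29, adjusted p = 0.00189, edgeR). For each of these genes, as for Sp5, the series did not overlap. The call held under all 15 alternatives for T and Dkk2, and for Mixl1 and Sp5 under all 14 in which they were tested.

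In all, 20 of the 101 other WNT genes were higher in the forties and 7 were lower (26.7%, against 19.4% of all records). The higher genes included the ligands Wnt3 (1.81) and Wnt2 (2.64), the R-spondin receptor Lgr5 (2.07), the receptor Ror1 (1.65), Notum (1.35), Apc2 (1.51), Fst (1.54) and Ccnd1 (1.52). The lower ones included Wnt9a (-1.01) and the corepressor Tle6 (-1.04). Wnt3, Ror1, Apc2, Wnt9a and Tle6 passed under all 15 alternatives, and Wnt2 and Lgr5 under all 14 in which they were tested. Notum and Ccnd1 lost their calls without TKO 35 or TKO 37 (adjusted p 0.0767 to 0.0886; 0.000275 to 0.0886 over all settings), Ccnd1 also without genotype in the model, and Fst lost its call without genotype in the model (adjusted p = 0.0705, from 1.18e-10 over all settings).

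Markers of the primitive streak and mesoderm moved with Sp5. Of 10 listed, 7 were tested, and 4 of these were higher and 0 lower in the forties, against 9.84% and 9.56% of all records. T and Mixl1 are in both lists. Summed over the 10, normalized counts were 113 to 140 in the thirties clones and 227 to 1005 in the forties clones, without overlap. An exact two-sided permutation test over 70 arrangements of the clones gave p = 0.0286, the smallest it can give. This p was not adjusted for the number of marker lists, and T and Mixl1, called above, are part of the sum. Ctrl 41 was highest in both the sum and Sp5, and TKO 47 was the lowest forties clone in both. Mesp1, Fgf8, Lhx1 and Msgn1 were at 0 in at least 1 clone. The neural and endoderm sums did not overlap between the series either, each with the same p. The neural sum was 2814 to 7232 in the thirties and 7689 to 9197 in the forties. The endoderm sum went the other way, with 25234 to 32928 in the thirties and 18905 to 24339 in the forties, although of 11 endoderm markers tested 6 were called higher and 1 lower. Of 20 fibroblast markers tested, 6 were called higher and 1 lower in the forties, with a median log2 difference of 0.726. Their sums overlapped between the series. Of 9 trophoblast markers tested, 0 were called higher and 2 lower, and these sums overlapped as well. Of all records, 9.84% were called higher and 9.56% lower. Whether cells of another type lie behind the differences in Sp5, T, Mixl1 and the other WNT genes was not tested.

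**Figure D5:**
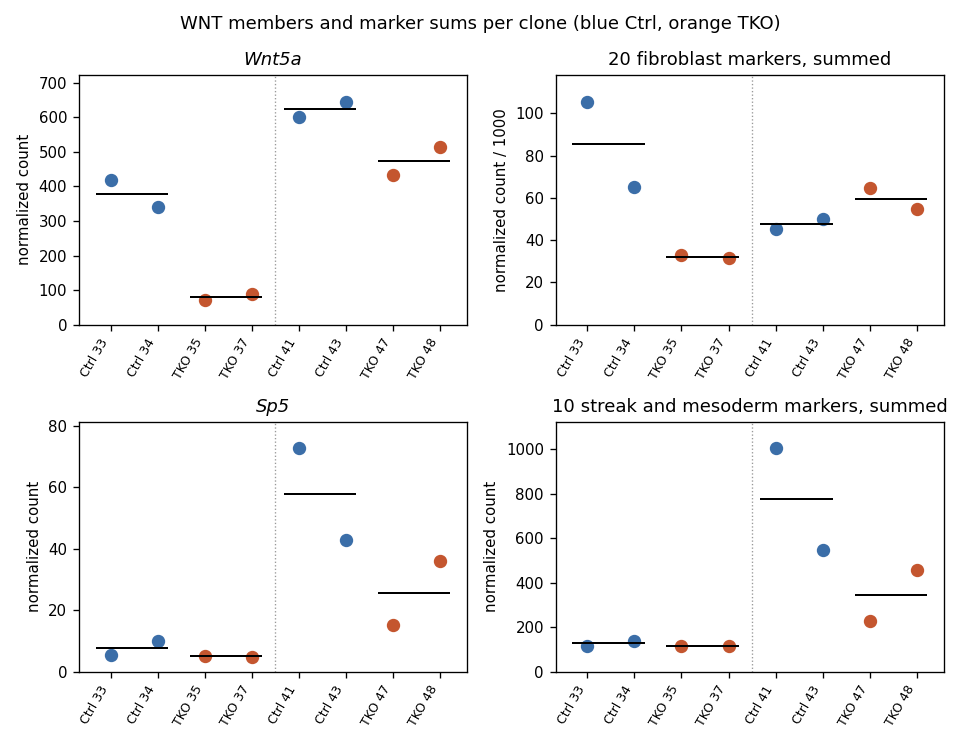
Normalized counts (vertical axes, from 0) per clone of Wnt5a beside the sum of 20 fibroblast markers, divided by 1000, and of Sp5 beside the sum of 10 streak and mesoderm markers, blue for Ctrl and orange for TKO, with bars at pair means. The streak sum is 113 to 140 in the thirties and 227 to 1005 in the forties, and Sp5 follows the same split.

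Wnt5a differed between the series too. The 4 thirties clones (71.9 to 417 normalized counts) lay below the 4 forties clones (434 to 645), with a log2 difference of 1.63 (standard error 0.34, adjusted p = 0.0104, edgeR). The gap between the nearest clones, Ctrl 33 and TKO 47, was narrow. The call was lost without TKO 37 (1.43, adjusted p = 0.051) and without genotype in the model (adjusted p = 0.116; 9.76e-06 to 0.116 over all 15 settings). Within the Ctrl clones alone Wnt5a had means of 379 in the thirties and 623 in the forties, and within the TKO clones 80.3 and 474.

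Cdx1, a homeobox gene that WNT induces in the posterior embryo, went the other way. It had 130.0, 116 and 111 normalized counts in Ctrl 33, TKO 35 and TKO 37, and 24.5 in Ctrl 34. The forties clones had 32.2, 27.5, 7.01 and 29.9 in Ctrl 41, Ctrl 43, TKO 47 and TKO 48. Ctrl 34 thus lay among the forties clones, and the series overlapped. The log2 difference was -1.96 (standard error 0.54, adjusted p = 0.0309, edgeR), lost without Ctrl 33, Ctrl 43 or any 1 of the TKO clones (-2.11 to -1.55, adjusted p 0.0609 to 0.0906; 0.00203 to 0.0906 over all 14 settings). The 4 tested target genes of the group therefore did not move as a set. Sp5 was higher, Cdx1 was lower, and Axin2 (-0.28, adjusted p = 0.224) and Znrf3 (0.07, adjusted p = 0.782) did not pass in edgeR. Of 17 other WNT target genes tested, 6 were called higher and 0 lower in the forties, with a median log2 difference of 0.34. Of all records, 9.84% were called higher and 9.56% lower.

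Dvl3, 1 of the 3 Dishevelled genes, had 1357, 1063, 1393 and 1238 normalized counts in Ctrl 33, Ctrl 34, TKO 35 and TKO 37, and 967, 1072, 924 and 829 in Ctrl 41, Ctrl 43, TKO 47 and TKO 48. The ranges met at Ctrl 34 and Ctrl 43. The log2 difference was -0.42 (standard error 0.12, adjusted p = 0.035, edgeR), lost without Ctrl 33, Ctrl 41 or any 1 of the TKO clones and without genotype in the model (-0.42 to -0.35, adjusted p 0.0617 to 0.122; 0.00801 to 0.122 over all 15 settings). Dvl2 had 2332, 2042, 2644 and 2116 in the thirties and 1979, 1942, 1923 and 1491 in the forties, in the same clone order. These did not overlap, but the difference of -0.32 did not pass (standard error 0.12, adjusted p = 0.0885, edgeR). Dvl1 overlapped, at 1022 to 1365 in the thirties and 1003 to 1222 in the forties.

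The remaining members without overlap had few counts. Wnt5b had 21.7, 18.7, 17.0 and 16.4 normalized counts in Ctrl 33, Ctrl 34, TKO 35 and TKO 37, and 41.5, 26.5, 29.1 and 22.2 in Ctrl 41, Ctrl 43, TKO 47 and TKO 48 (0.68, standard error 0.24, adjusted p = 0.079, edgeR). Wnt8a, a ligand of the early embryo, had 48.8, 34.6, 34.5 and 48.8 in the thirties and 24.9, 30.6, 24.0 and 28.2 in the forties, in the same clone order (-0.62, standard error 0.23, adjusted p = 0.0863, edgeR). Tcf7l1, whose product mostly represses WNT targets in pluripotent cells, had 59.6, 51.8, 60.5 and 71.0 in the thirties and 43.6, 36.7, 45.1 and 39.3 in the forties (-0.56, standard error 0.19, adjusted p = 0.0633, edgeR). None of these passed, and Tcf7l1 is among the symbols with several records. Tcf7 had 1338, 1564, 1692 and 1584 in the thirties and 1404, 1267, 1120 and 1163 in the forties, in the order Ctrl, Ctrl, TKO, TKO; the series overlapped, and the difference of -0.32 did not pass in edgeR (adjusted p = 0.0609) and passed in DESeq2. Wnt4 had 14.4 to 51.5 in the thirties and 42.8 to 60.1 in the forties, and its difference of 0.93 likewise passed in DESeq2 and not in edgeR (adjusted p = 0.0731).

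Some core genes of the pathway had a narrow range over the clones. Among the single-record genes of the destruction complex the highest clone was 1.40-fold the lowest for Gsk3b, 1.45-fold for Gsk3a, 1.47-fold for Csnk1a1 and 1.51-fold for Apc. The co-receptor Lrp6 and the feedback gene Axin2 had ratios of 1.56 and 1.505. Ctnnb1 and Axin1, whose symbols have several records, had ratios of 2.33 and 1.66. Fzd7 had 2416, 1286, 2362 and 2647 normalized counts in Ctrl 33, 34, 41 and 43 and 1969, 1856, 2075 and 1810 in TKO 35, 37, 47 and 48, so that Ctrl 34 was lowest and the genotypes overlapped. The ratio was 2.06 for Fzd7 and 2.04 for Lrp5, with Ctrl 34 lowest at 1408 and Ctrl 33 highest at 2869. The widest ranges were those of Cdx1 (18.5-fold), Dkk1 (16.1-fold), Sp5 (15.1-fold) and Wnt5a (8.97-fold).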

How the data were processed

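Per the study's methods and the submitters' processing notes, the authors aligned reads with BWA 0.7.5a to the GenBank transcript records of mm9 and deposited raw counts per RefSeq record, with the record length. Of 27052 records, 97.3% could be given a symbol from the reference tables. The members and lists were chosen with earlier results of these data known.

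Records were kept where 4 or more libraries had 5 or more reads (16235). Counts were scaled with median-ratio size factors (0.369 to 2.07) and tested with edgeR 4.0.16 (quasi-likelihood test, R 4.3.3), with Benjamini-Hochberg adjustment over all records kept and a threshold of 0.05. The standard error is the log2 fold change divided by the square root of the F statistic. The genotype comparison had genotype alone in the model, the series comparison had genotype and series, and the comparisons within series and their difference were contrasts of 4 group means. All 28 pairs of libraries differed by more than sampling noise, so each counted as 1 sample, which does not make the clones independent. Pairs of the same genotype and series had the lowest chi-square per degree of freedom. This value grows with depth, so it does not rank how close pairs of unlike depth are. For the pairs of the same genotype and series it was 9.92 (TKO 35 and 37), 13.6 (Ctrl 41 and 43), 24.4 (Ctrl 33 and 34) and 25.75 (TKO 47 and 48). The next lowest value, 32.97, was that of Ctrl 33 and Ctrl 43.

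All members were named; values per clone are given for members that passed, that did not overlap or that were highest in their role. Other WNT genes were named where they passed (up to 3 by smallest adjusted p in each comparison) or were highest in their role. Genes named beyond these were chosen after their values were seen. The alternatives tried were DESeq2 1.42.0, TMM scaling, a filter of 10 reads in each library, no filter, summed records, other covariates and leaving out each clone; the use of symbols with a single record was chosen after seeing the data. Promoters came from RefSeq.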

Additional observations from a re-analysis of the deposited data

Results flagged for a closer look

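Of 132 checks of a single clone against the 3 others of its genotype or series (33 genes in 4 groups of 4), 13 found a clone standing apart, where chance gives about 1 in 20. Ctrl 41 had the high Dkk1 count, 139 normalized counts, both among the Ctrl clones (next 25.5) and among the forties clones, and TKO 37 had the low one among the TKO clones, 14 (next 18.8). Ctrl 33 stood apart with 130.0 for Cdx1 among the Ctrl clones (next 32.2), with 1365 for Dvl1 among the Ctrl clones (next 1022) and with 43.3 for Axin1 among the thirties clones (next 28.9). Ctrl 34 had the lowest Axin1 of the Ctrl clones, 28.8, the lowest Axin2 of the thirties clones, 206, and the highest Sp5 of the thirties clones, 10.1 from 7 reads. TKO 48 had the highest Fzd4 of the forties clones, 60.7 (next 29.6), and the lowest Dvl2, 1491 (next 1923). TKO 47 had the lowest Fzd1 of the forties clones, 130 (next 185), and the lowest Gsk3b of the TKO clones, 2141 (next 2440).

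The change in TKO differed between the clone series by edgeR's test of the difference for 1 member and 6 other WNT genes. The change in the forties minus that in the thirties was 1.83 for Wnt5a, 1.81 for Notum, 2.20 for Ccnd2, 1.86 for Ccnd1 and 1.54 for Dkk2 on the log2 scale. It was -2.56 for Wnt3a, which had 46.1 and 31.7 normalized counts in the thirties Ctrl clones, 78.7 and 86.4 in the thirties TKO clones, 31.2 and 45.9 in the forties Ctrl clones and 14.0 and 14.5 in the forties TKO clones. It was -1.14 for Csnk1e. Each call was lost without Ctrl 41, Ctrl 43, TKO 35 or TKO 37, and all but that of Notum also without TKO 48 (adjusted p 0.0558 to 0.238). The difference was above 0 for 20 of 20 fibroblast markers and passed for 9 of them, against 1.30% of all records. The part of these markers was not tested.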

How the results depend on the processing

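No paired analysis was possible because no clone number occurs in both genotypes. The count of records called for TKO against Ctrl was 39; it was 465 with DESeq2, 926 with the series in the model and 15 to 86 without 1 clone (86 without TKO 48, 20 or fewer without Ctrl 41, Ctrl 43, TKO 35, TKO 37 or TKO 47), with 0 WNT genes called in each. The forties differed from the thirties in 3149 records, in 1413 with no genotype in the model (WNT genes 4 and 2) and in 1281 to 3816 without 1 clone (WNT genes 1 to 6; 1 without TKO 37, 2 without TKO 35 or TKO 47). Within the thirties 1928 records were called and 27 to 3457 without 1 clone (27 without TKO 35, 81 without TKO 37, 3457 without Ctrl 33), with 1 to 7 WNT genes, and 5 with DESeq2 or no filter (1 without Ctrl 41, Ctrl 43, TKO 35 or TKO 37, 7 without Ctrl 33). Within the forties 322 were called, 732 with no filter, 982 with DESeq2 and 7 to 1483 without 1 clone (7, 14, 18, 18, 35 and 162 without Ctrl 41, Ctrl 43, TKO 35, TKO 37, TKO 48 and TKO 47, 1480 or more without Ctrl 33 or Ctrl 34), with 0, 3, 3 and 0 to 3 WNT genes. The difference between the series passed for 211 records, 671 with no filter, 813 with DESeq2 and 1 to 1314 without 1 clone (2 at most without Ctrl 41, Ctrl 43, TKO 35 or TKO 37, 52 without TKO 48, 566 or more without TKO 47, Ctrl 34 or Ctrl 33), with 1, 3, 3 and 0 to 6 WNT genes. Where a genotype of a series is left with 1 clone, that clone is assumed to vary like the others. Changes that did not pass with all clones turned sign without 1 clone: Znrf3 between series (-0.015 to 0.270, with -0.008 without TKO 37 and -0.015 without TKO 48), Cdx1 within the thirties (-0.198 without Ctrl 34, and 2.210 without Ctrl 33, where it passed at an adjusted p of 0.0281), Fzd1 (-0.521 to 0.005) and Cdx1 (-2.073 to 0.005) within the forties, each without TKO 48 and TKO 47, and the Sp5 difference between series (-1.187 without TKO 48, 0.018 without Ctrl 41, 0.064 without TKO 47). The causes were not tested. Of 513 values of single genes under settings that keep all clones, 494 kept direction and side of the threshold. Depth limits the low genes most, since Sp5, Nkd1 and Tcf7l2 had libraries with 0 to 2 reads.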
